A study of Mus musculus with 3 samples.

Results

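The lung of a mouse or mice bearing B16 tumours was set against a normal lung, on 1 array each, out of 3 arrays in the series; the third held the lung of LLC bearers. B16 is a melanoma line of the mouse, and LLC stands for Lewis lung carcinoma, a line from a mouse lung tumour. Tumour cells were placed under the skin of the back, and the lung is studied as a distant organ that the tumour cells have not yet reached, per the series description. All lungs were frozen, and total RNA was hybridised to Affymetrix mouse expression arrays. No source used here gives the number of animals per sample, their strain and age, the time after injection or the origin of the normal mice. The comparison took every probe set on the arrays except the 66 manufacturer controls, which left 12422 of 12488 probe sets. A probe set is a group of short probes that together report 1 transcript, and 10833 of them carried exactly 1 gene symbol. A gene was read from its brightest probe set, which gave 8251 genes. Of these, 5284 had a signal above the floor of 23.6 intensity units on both arrays, 281 on the B16-bearing array only and 404 on the control array only. These 5969 genes are called measured. The other 2282 genes were below the floor on both arrays and are not described.

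There were no replicates, so each difference describes these arrays and not the conditions. Differences are log2 values, B16-bearing minus control. A gene below the floor on 1 array has only a lower bound, written as at least so many fold. Where 3 signals follow each other, the first is from the lung of B16 bearers, the second from that of LLC bearers and the third from the control. Both tumour-bearing lungs share the 1 control array. In a whole lung, fewer cells of a type and less RNA per cell cannot be told apart.

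A tumour growing at a distance can act on the lung through the blood. Cytokines from the tumour and the host induce acute-phase proteins, blood neutrophils carry granule proteins into the lung vessels, and stress raises circulating glucocorticoid hormones, which switch on a well-known set of genes in lung cells. The lung itself is built from alveolar type 1 cells for gas exchange, surfactant-producing type 2 cells, club and ciliated cells of the airways, a dense capillary endothelium, and fibroblasts that lay down collagen and elastic fibres. The veins of the mouse lung are sheathed in heart muscle, so that cardiac genes are normally read in lung RNA. The series is known for S100a8 and S100a9, the calcium-binding subunits of calprotectin.

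Both samples read as lung. Surfactant protein C (Sftpc) read 7482, 7298 and 6206, and the club cell secretory protein Scgb1a1 5927, 6219 and 5424. Of the defining markers of pigment cells, Tyrp1 and Dct did not reach the floor in the lung of B16 bearers or in control. Tyr, the enzyme of melanin synthesis, read 26.2, 30.05 and 20.9, and Pmel, a pigment granule protein, 78.6, 40.7 and 85.9. Dct read 196 in the LLC-bearing lung. The arrays were alike in scale, and 21.0% of values on the B16-bearing and 20.3% on the control array lay below 0. Control probe sets at both ends of a transcript gave a 3'/5' ratio, which rises as RNA is cut or copied incompletely, of 1.56 in B16 bearers and 1.44 in control for actin, and of 1.20 and 0.957 for Gapdh. Its part in the differences was not tested.

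Most genes differed little, and dim genes differed more widely than bright ones. Over all 5969 measured genes the median difference was −0.01 and the robust SD across genes 0.45; 49.4% were higher in the B16-bearing lung by any size. Of them 193 (3.23%) were higher by 2-fold or more and 277 (4.64%) lower by as much, of which 68 and 102 are lower bounds. The 4-fold mark was passed by 18 genes on the higher and 29 on the lower side.

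Among the 524 bright genes, with a mean signal of 500 or more, the robust SD was 0.26 and the median 0.10. Only 6 bright genes passed 2-fold on the higher side (1.15%) and 1 on the lower (0.191%). The 2717 genes of the middle range, 100 to under 500, had a robust SD of 0.38, with 50 past 2-fold on the higher (1.84%) and 60 on the lower side (2.21%). The 2728 dim genes had a robust SD of 0.56, with 137 higher (5.02%) and 216 lower (7.92%). Dim genes thus made up 137 of the 193 higher and 216 of the 277 lower genes, and 65 and 101 of them are lower bounds. The excess of lower over higher genes lay mostly in the dim range. Over all signal levels the B16-bearing array had fewer probe sets above the floor than the control array (7303 against 7517).

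**Figure D1:**
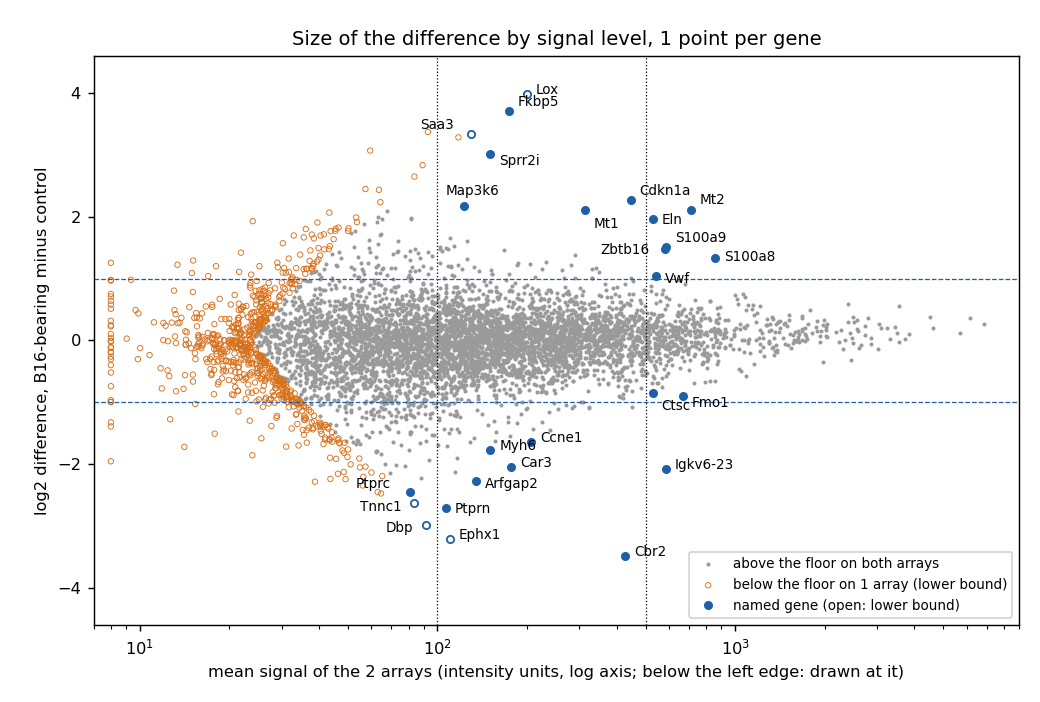
Log2 difference of each measured gene (vertical axis) against its mean signal on the B16-bearing and control arrays (horizontal log axis, intensity units). Filled points are genes above the floor on both arrays, open points genes below it on 1 array, whose difference is a lower bound; dotted lines mark signals of 100 and 500 and dashed lines 2-fold. The cloud narrows from left to right, and the 6 bright genes above the upper dashed line are Mt2, Eln, S100a9, Zbtb16, S100a8 and Vwf.

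Another probe set of the same gene gave a check on the probe set, though not on the animal, since it was read on the same arrays. It was available for 973 genes. Where the brightest probe set differed by under 1.5-fold, the next brightest lay on the same side of control for 57.4% of 798 genes. The share was 68.0% of 125 genes at 1.5-fold to under 2-fold, and 72.0%, or 36 of 50 genes, at 2-fold or more. By signal, it was 1 of 1 bright gene, 19 of 25 genes of the middle range (9 of 9 lower and 10 of 16 higher), and 16 of 24 dim genes. The second probe set itself passed 2-fold on the same side for only 11 of the 50. The gap between the 2 probe sets of a gene also gave a spread per probe set. Its robust SD, divided by the square root of 2, was 0.40, with 0.32 for bright and 0.52 for dim genes. The gap itself is wider than this by that root. A difference of 2-fold in a single probe set was therefore often not seen in the next.

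**Figure D2:**
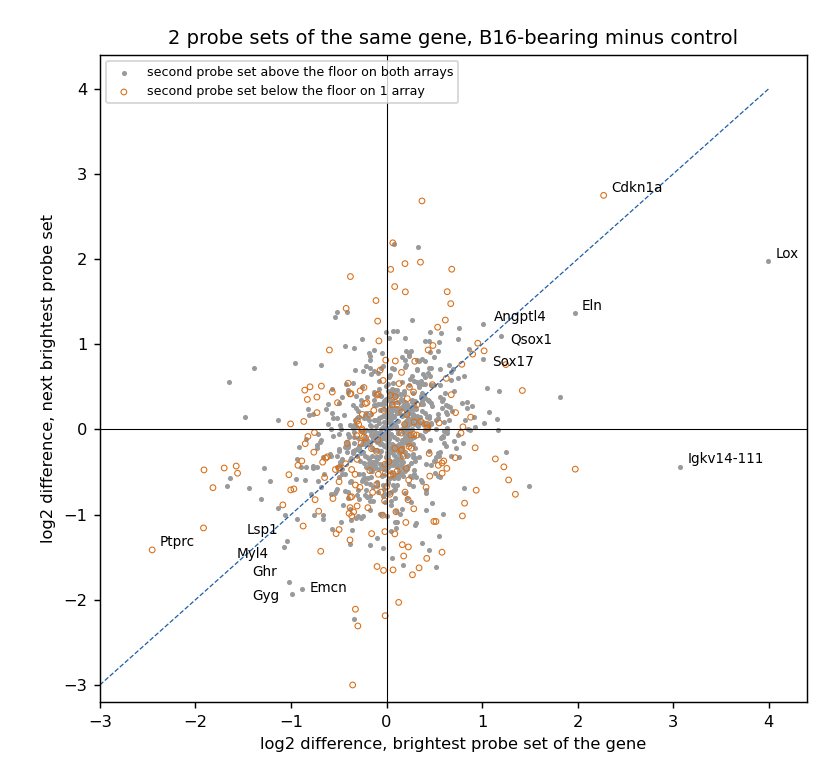
Log2 difference of the brightest (horizontal) and the next brightest probe set (vertical) of each of 973 genes; open points have a second probe set below the floor on 1 array, and the dashed line marks equal differences. Most genes lie near the centre, while Cdkn1a, Lox, Eln and Ptprc stand apart on the same side in both probe sets and Igkv14-111 lies on opposite sides.

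Among genes with several measured probe sets, 23 were higher in all of them by 1.5-fold or more, and 30 were lower by as much. The threshold of 2-fold was passed by all probe sets of 5 higher genes, Cdkn1a, Lox, Eln, Qsox1 and Angptl4, and of 5 lower genes, Ptprc, Myl4, Lsp1, Ghr and Dnm1. Cdkn1a encodes the cell cycle inhibitor p21. One of its probe sets read 738, 370 and 153, and the other 158, 24.5 and 0.3. The B16-bearing lung was the highest in both, by 2.27 and by at least 2.75 (log2). Qsox1, a secreted enzyme that forms disulfide bonds, read 151, 114 and 65.7, with differences from control of 1.20 and 1.10. Angptl4, a secreted inhibitor of lipoprotein lipase, read 357, 214 and 178, with differences of 1.01 and 1.23.

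Further genes that were higher in all their measured probe sets, by 0.74 to 1.25, were Il1r2, the decoy receptor of interleukin 1, Npr3, the clearance receptor of natriuretic peptides, the endothelial transcription factor Sox17, the antibacterial lectin Reg3g, the interferon-induced GTPase Iigp1, the stress gene Ndrg1 and the ribosome rescue factor Pelo. Sox17 read 441, 264 and 218 in its brightest probe set. On the control array neither of the dim probe sets of Il1r2 reached the floor, nor did the second probe sets of Pelo, Reg3g and Iigp1, so these differences are lower bounds.

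On the lower side, Ptprc encodes CD45, the phosphatase on the surface of white blood cells. It read 25.0, 245 and 137 in its brightest probe set, a difference of −2.45, and 11.3, 95.4 and 62.9 in the next, where it was at least 2.67-fold lower. The B16-bearing lung was the lowest and the LLC-bearing lung the highest of the 3 in both. Lsp1, an actin-binding protein of leukocytes, showed the same order, at 71.0, 264 and 147, and differed from control by −1.05 and −1.31. Myl4, the atrial light chain of myosin, read 207, 150 and 437, with differences of −1.07 and −1.38. The growth hormone receptor Ghr read 69.4, 102 and 141 (−1.03 and −1.79), and the vesicle-cutting GTPase Dnm1 186, 274 and 389 (−1.06 and −1.01). Differences of −0.81 to −1.94 in all measured probe sets were also seen for Gyg, which primes glycogen synthesis, the activin receptor Acvr2a, the glycosyltransferase B3gnt2, the fatty acid ligase Acsl4, the endothelial sialomucin Emcn, the cytoskeletal Septin4 and the growth factor Bmp6. The second probe sets of Acsl4 and Septin4 were below the floor in B16 bearers and give lower bounds.

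Genes that respond to glucocorticoids held several of the highest differences in the comparison. Of 28 genes on the list, 27 were on the arrays and 25 measured; 19 were higher and 6 lower, and 8 and 1 of these passed 2-fold (32.0% and 4%, beside 3.23% and 4.64% of all measured genes). Of the 24 above the floor on both arrays, 19 were higher. The members of this and every other list were chosen with earlier results of these data known. The list shares can therefore reflect that choice. The median was 0.15, beside −0.01 over all measured genes, and the list held genes with large differences beside genes with hardly any. Fkbp5, which binds the glucocorticoid receptor with Hsp90, read 323, 192 and 24.6, a difference of 3.71; the control signal stood just above the floor. Zbtb16, a transcriptional repressor, read 859, 630 and 308 (1.48), and the kinase Map3k6 200, 48.5 and 44.5 (2.17). The transcription factor Klf9 read 1002, 806 and 643 (0.64) and Hif3a, a relative of the hypoxia-inducible factors, 73.1, 31.7 and 35.7 (1.03). Klf9, Zbtb16, Fkbp5 and Cdkn1a were ordered B16-bearing, LLC-bearing, control, whereas Map3k6 and Hif3a were high in the B16-bearing lung alone.

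Other well-known targets of the hormone were level. Sgk1, a kinase that regulates sodium transport, read 981, 975 and 960 (0.03), and the phosphatase Dusp1 1216, 1307 and 1183 (0.04). The clock gene Per1 differed by −0.11 and Tsc22d3, which encodes GILZ, by −0.35, from signals of 49.95 and 63.7. Nr3c1, the glucocorticoid receptor itself, was dim and lower, at 30.4, 40.4 and 59.5 (−0.97). Ddit4, a brake on mTOR signalling, was the gene at least 2-fold lower, at 120.3, 259 and 246 (−1.03).

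The metallothioneins Mt1 and Mt2 encode small cysteine-rich proteins that bind zinc and copper, and both metals and glucocorticoids are known to induce them. Mt2 read 1152, 430 and 266 and was the bright gene with the largest higher difference, 2.11. Mt1 read 508, 111 and 118, also 2.11. Mt1 was thus high in the B16-bearing lung alone, while Mt2 in the LLC-bearing lung lay between the others. The genes lie next to each other on chromosome 8, and the promoters are shown because their genes differed alike from control. The sequences are RefSeq's, build GRCm38.p6, with 250 bases before and 30 after the annotated start, Mt1 at chr8:94178839-94179118 and Mt2 at chr8:94172368-94172647, both on the plus strand. Capitals mark the core of the metal response element, TGCGCNC or TGCACNC on either strand.
Mt1: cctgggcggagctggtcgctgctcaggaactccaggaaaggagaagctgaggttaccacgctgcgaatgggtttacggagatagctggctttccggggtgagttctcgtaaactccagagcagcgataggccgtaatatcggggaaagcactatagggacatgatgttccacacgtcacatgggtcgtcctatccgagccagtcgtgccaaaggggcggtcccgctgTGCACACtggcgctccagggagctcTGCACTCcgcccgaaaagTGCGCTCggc
Mt2: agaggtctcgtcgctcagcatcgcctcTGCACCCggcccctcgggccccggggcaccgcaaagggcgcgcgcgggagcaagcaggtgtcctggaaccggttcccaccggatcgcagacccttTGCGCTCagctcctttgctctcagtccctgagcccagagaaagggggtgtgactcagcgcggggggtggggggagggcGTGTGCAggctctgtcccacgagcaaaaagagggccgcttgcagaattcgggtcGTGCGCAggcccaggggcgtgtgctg
The core occurred 3 times in the Mt1 and 4 times in the Mt2 window. In Mt1 the matches began 23 bases before and 2 and 20 bases after the annotated start, all on the strand of the gene. In Mt2 they began 223, 128 and 50 bases before the start and 4 bases after it, the last 2 on the opposite strand. These positions hold for RefSeq's annotated starts; where transcription of Mt1 begins further along, its matches after the annotated start would lie before the start used. The core is short and common: 34.9% of the 149 promoters found for the genes at least 2-fold higher held it, 38.4% of the 224 for the genes at least 2-fold lower, 37.5% of the 4792 for all measured genes and 24.1% of all 32851 promoters. The E-box CACGTG was held by 16.1% of the higher, 9.38% of the lower and 11.7% of all measured genes' promoters. For the TATA box TATAAA the shares were 14.1%, 11.6% and 10.98%, for the AP-1 site TGACTCA 7.38%, 5.80% and 4.95%, and for the heat shock pair GAANNTTC 5.37%, 7.59% and 6.64%. The D-box TTACGTAA of the clock was in 0 of the higher and 0 of the lower genes' promoters and in 0.209% of all. Matches are descriptions of these letters and not of binding.

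Lox and Eln had the largest differences among the matrix genes, and no collagen on the list passed 2-fold. Lox encodes lysyl oxidase, which cross-links collagen and elastin, and Eln encodes elastin itself. Lox read 376, 37.0 and 23.4, at least 15.9-fold above control, and its second probe set 262, 95.1 and 66.7 (1.97). Eln read 843, 299 and 216 (1.97), and 150.6, 76.3 and 58.6 (1.36). In all these probe sets the B16-bearing lung stood well above both other lungs. Of 40 fibroblast and matrix genes 34 were measured, 23 higher and 11 lower, with a median of 0.22. Of all measured genes 49.4% were higher. The share was 53.4% at a mean signal of 100 or more and 62.2% among bright genes. On the higher side 4 genes of the list passed 2-fold and on the lower 0, beside 3.23% and 4.64% of all measured genes. The others past 2-fold were Mmp3, stromelysin, at 88.6, 42.5 and 38 (1.22), and Fbln2, a fibulin of elastic fibres, at 126, 56.2 and 60.1 (1.07). Both are dim.

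The basement membrane collagens Col4a1 and Col4a2 were higher, at 1339, 1145 and 942 (0.51) and 1334, 1087 and 792 (0.75). The fibrillar collagens gave 0.58 for Col3a1, 0.37 for Col1a2 and −0.08 for Col1a1, and fibronectin (Fn1) −0.06. Second probe sets of the fibrillar collagens lay on the other side of control, at least 2.72-fold lower for Col3a1, −0.08 for Col1a2 and 0.47 for Col1a1. Other genes of elastic fibres were divided. Loxl1, a relative of Lox, read 127, 59.99 and 140 (−0.15). Fbln1, a fibulin, stood at −0.68 in its brightest probe set and at 0.76 in the next. The microfibril genes Mfap5 and Mfap2, which are not on the list, stood at −0.72 and 0.61, and Mfap5 at −0.05 in its second probe set. Mmp9, a gelatinase that the study's group is known to have linked to such lungs, read 77.6, 150.4 and 54.0 (0.52). Timp2, an inhibitor of these proteases, was the lowest of the list at 164, 266 and 290 (−0.82). Smooth muscle genes were close to control (12 measured, 8 higher, median 0.11), with desmin (Des) the highest at 0.79 and Cnn2 the lowest at −0.81.

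Acute-phase and neutrophil genes were mostly higher. Saa3, a serum amyloid made in lung and other tissues, read 239, 183 and 19.2, at least 10.1-fold above control. Serpina3n, a protease inhibitor, read 288, 208 and 122 (1.24), ceruloplasmin (Cp) 388, 304 and 192 (1.02) and haptoglobin (Hp) 2870, 2248 and 1910 (0.59). All 4 were ordered B16-bearing, LLC-bearing, control, as were Lbp and Crp. The list as a whole did not share this order. Hpx, at 30.4, 225 and 12.5, and Orm2, at 45.1, 73.6 and 19.2, were highest in the LLC-bearing lung. So were Apcs and Socs3. Of 24 acute-phase genes on the list, 12 were measured, 9 higher (75%, beside 49.4% of all measured genes) and 3 lower, with a median of 0.52. On 1 array 5 of them were below the floor. Of the 7 above it on both, 5 were higher. Albumin, a liver product, was below the floor on both arrays, and the hepatocyte markers Alb, Apoa1 and Ttr summed to 32.5 in the B16-bearing lung against 7.6 in control and 1514 in the LLC-bearing lung.

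S100a8 read 1224, 1810 and 485 and S100a9 866, 1684 and 305, so that both lay highest in the LLC-bearing lung; the differences of the B16-bearing lung were 1.34 and 1.51. The granule proteins lactoferrin (Ltf), at 109, 151 and 54.3 (1.01), and cathelicidin (Camp), at 300.2, 225 and 171 (0.81), were also higher. Of 30 neutrophil and granule genes 21 were measured, 16 higher (76.2%, beside 49.4% of all measured genes) and 5 lower, with a median of 0.30. By 2-fold, 4 were higher and 2 lower (19.0% and 9.52%, beside 3.23% and 4.64% of all measured genes). Of the 18 above the floor on both arrays 13 were higher. Not all went one way: the formyl peptide receptor Fpr2 read 49.4, 145 and 143 (−1.53), the integrin subunit Itgb2 42.3, 118 and 97.6 (−1.21) and the lectin-like Chil3 288, 442 and 549.5 (−0.93). Elane and Camp had their highest signal in the B16-bearing lung, whereas Itgb2 and Fpr2 had their lowest there. With a floor at a signal of 100 the median of the neutrophil list was 0.12. The hemoglobin gene Hba-a1 and Alas2, which starts heme synthesis, summed to 7808, 7917 and 5959. Of 10 red cell genes measured 8 were higher (median 0.28, beside −0.01 over all measured genes). The part of blood in the neutrophil values was not tested.

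**Figure D3:**
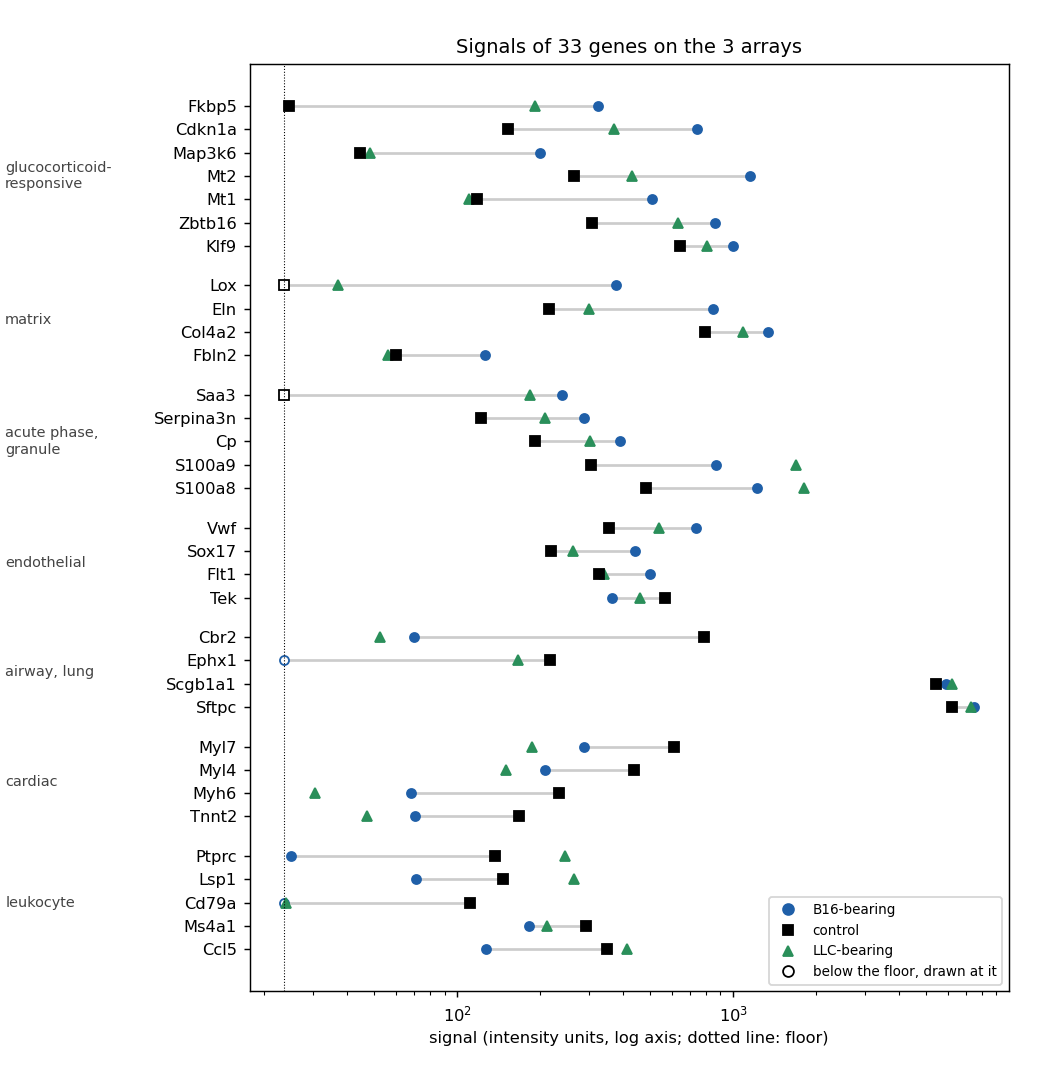
Signals (log axis, intensity units) of 33 genes on the arrays of B16 bearers (circles), LLC bearers (triangles) and control (squares), grouped by role; open symbols are below the floor and drawn at it, and grey bars join the B16-bearing and control lung. Fkbp5, Lox, Saa3, Cbr2 and Ephx1 have the longest bars, and Scgb1a1 and Sftpc, the brightest genes shown, hardly any.

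Lung epithelial genes were near control, apart from a few that were far lower. The type 2 list had 5 higher and 7 lower of 12 measured (median −0.02), the type 1 list 5 higher and 4 lower of 9 (0.01; −0.10 after a smooth curve between the arrays was removed), and the club and airway list 5 higher and 7 lower of 12 (−0.03). Ager, the type 1 cell receptor RAGE, read 3141, 2270 and 2432 (0.37). Surfactant protein B (Sftpb) differed by 0.22, and the club cell cytochrome Cyp2f2 by 0.07. Pdpn, podoplanin of type 1 cells, was lower, at 126, 205 and 233 (−0.89), and so was Chil1, at 285, 502 and 533 (−0.90).

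Cbr2 encodes a carbonyl reductase that is abundant in club cells. It read 70.0, 52.5 and 782, a difference of −3.48, the largest lower difference of any gene above the floor on both arrays, and it was low in both tumour-bearing lungs. It has 1 probe set, so no second reading exists, while Scgb1a1 of the same cells differed by 0.13. Ephx1, the microsomal epoxide hydrolase, read 2.86, 166 and 217.5, at least 9.22-fold lower, and was low in the B16-bearing lung alone. Foxa2, which switches on epithelial genes of the lung, read 112 in control and did not reach the floor in either tumour-bearing lung, so the B16-bearing lung was at least 4.74-fold lower. Over 34 measured genes of xenobiotic metabolism, 15 were higher and 19 lower (median −0.04). The flavin monooxygenase Fmo1, a bright gene, read 464, 591 and 869 (−0.91), Cyp2e1 127, 429 and 273 (−1.10), and Cyp1a1 166, 178 and 282 (−0.77), with 0.18 in its second probe set. On the higher side were Aldh3a1, at 101.0 against 25.3 (1.997), and Aox1, at 116 against 52.9 (1.13). The control signal of Aldh3a1 stood just above the floor, and its other probe set was below the floor on both arrays. Gclc, the enzyme that limits glutathione synthesis, read 230, 130 and 142 (0.69).

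Endothelial genes as a list did not shift (24 measured, 13 higher and 11 lower, median 0.03), but single members differed in opposite directions. Vwf, the clotting factor stored in endothelial cells, read 732, 537 and 354 (1.05) and was among the 6 bright genes at least 2-fold higher. Sox17 differed by 1.01. Flt1, a receptor of VEGF-A and placental growth factor, read 501, 341 and 327 (0.62), and Pgf, that growth factor, 164, 114 and 86.9 (0.91). Vegfa differed by −0.14 and its main receptor Kdr by −0.14. Lower were the angiopoietin receptor Tek, at 363, 461 and 568 (−0.64), the adhesion molecule Icam1, at 288, 357 and 462 (−0.68), and Emcn, at 111, 154 and 204 (−0.88). For Tek, Icam1 and Emcn the LLC-bearing lung lay between the others. The general endothelial marker Cdh5 was level, at 1338, 1517 and 1407 (−0.07).

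Most heart muscle genes were lower. Of 35 striated and cardiac muscle genes 23 were measured, 5 higher and 18 lower, of which 12 lower and 0 higher genes passed 2-fold, with a median of −1.02. The lower share was 52.2%, beside 4.64% of all measured genes (7.92% of dim and 2.21% of middle ones). Of the 18 above the floor on both arrays 13 were lower and the median was −0.41; with the floor at the 60th percentile it was −0.40. Myh6, the alpha heavy chain of myosin, read 67.9, 30.5 and 233 (−1.78), cardiac troponin T (Tnnt2) 70.6, 47.1 and 167 (−1.24), the atrial light chain Myl7 288, 187 and 611 (−1.08), and troponin I (Tnni3) 43.5, 38.9 and 102 (−1.22). Tnnc1, cardiac troponin C, read 147 in control and under the floor in either tumour-bearing lung, at least 6.22-fold lower in B16 bearers. Cardiac actin (Actc1) and the atrial peptide Nppa differed less, by −0.47 and −0.34. The 5 higher genes of the list were Casq2 (0.42), Fhl2 (0.38), Casq1 (0.27), Mybpc3 (0.26) and Tnnc2 (0.09). The 5 cardiac markers summed to 668, 474 and 1364, highest in the control lung. Of 4 skeletal muscle markers, Acta1, Ckm and Tnnt3 were below the floor on all 3 arrays, while Pvalb, the calcium buffer parvalbumin, read 242 in B16 bearers and 276 in control (−0.19) and was below the floor in LLC bearers. How much heart-type muscle each piece of lung held was not tested, and the 1 control array enters both differences.

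Genes of B lymphocytes were mostly lower. Of 12 measured B lymphocyte genes 1 was higher (8.33%, beside 49.4% of all measured genes) and 11 were lower (median −0.46). Among the 7 above the floor on both arrays 6 were lower. At least 2-fold lower were 4 (33.3%, beside 4.64% of all measured and 7.92% of dim genes). All 4 were dim and below the floor in B16 bearers. With the floor at the 60th percentile or at a signal of 100, 0 were at least 2-fold lower. Cd79a, a signalling chain of the B cell receptor, read 111 in control and the IgE receptor Fcer2a 119.9. Neither reached the floor in the lung of B16 bearers, where they were at least 4.72-fold and 5.08-fold lower. Ms4a1, which encodes CD20, read 182, 212 and 294 (−0.69) and the heavy chain gene Ighm 481, 575 and 607 (−0.34). In second probe sets Ms4a1 was at least 2.70-fold lower, and Ighm stood far lower than in its brightest, at −2.22. Igkv6-23, a light chain segment, was the bright gene at least 2-fold lower, at 224, 437 and 944 (−2.07). Its probe set belongs to a class that matches several related genes, so the member of the family is uncertain. Another light chain segment, Igkv14-111, was at least 8.41-fold higher in its brightest probe set and lower in 2 others, by −0.44 and at least 2.02-fold.

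T and natural killer cell genes were split (11 measured, 5 higher and 6 lower). The chemokine Ccl5 read 127, 414 and 349 (−1.46) and granzyme A (Gzma) 49.4, 154 and 133 (−1.43), low in the B16-bearing lung alone. Il2rb, a receptor subunit for interleukin 2, was higher, at 54.3, 38 and 25.8 (1.07), Cd247, a signalling chain of the T cell receptor, was at least 1.79-fold higher, and Cd4 differed by 0.44. Macrophage and monocyte genes also divided, with 8 higher and 13 lower of 21 (median −0.13). The lysosomal glycoprotein Cd68 read 46.8, 155 and 122 (−1.38) and the lipid carrier Fabp4 82.8, 248 and 213 (−1.36), while the complement subunit C1qc, at 318, 352 and 186 (0.77), and the scavenger receptor Msr1, at 179, 120.2 and 112 (0.68), were higher. Cathepsin S (Ctss), which trims the class II chaperone, read 609, 1102 and 975 (−0.68), and cathepsin C (Ctsc) 376, 741 and 680 (−0.85). Genes of class II presentation were level (12 measured, 5 higher, 0 past 2-fold, median −0.02), with H2-Aa at −0.08 and Cd74 at 0.33.

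Of 22 measured interferon-induced genes 11 were higher and 11 lower (median 0.06). By 2-fold, 4 were higher and 1 lower (18.2% and 4.55%, beside 3.23% and 4.64% of all measured genes). The GTPases Iigp1, at 263, 242 and 111 (1.25), and Igtp, at 190, 190 and 86.6 (1.13), and Ifi47, at 76.8, 44.1 and 34.4 (1.16), were at least 2-fold higher. The antiviral Ifit2 was at least 2.68-fold lower and Ifit3 lower by −0.72. Ifi204 had a difference of 1.35 in its brightest probe set, while the next was at least 1.70-fold lower. Among chemokines and cytokines, 9 of 21 measured were higher and 12 lower. Csf1, the growth factor of macrophages, read 207, 49.6 and 94.6 (1.13), and the membrane chemokine Cx3cl1 46.5, 49.1 and 109 (−1.23).

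Among genes of basic cell function, the respiratory chain and the proteasome lay mostly on the lower side of control. Of 40 respiratory chain and ATP synthase subunits measured, 13 were higher and 27 lower, 4 at least 2-fold lower, with a median of −0.25. Among the 38 above the floor on both arrays 26 were lower. Over all measured genes 49.4% were higher and 4.64% at least 2-fold lower. Cytochrome c (Cycs) read 66.6, 80.5 and 199 (−1.58) and Atp5o 62.1, 110.3 and 174 (−1.49). Cox6a2, a form found in heart and skeletal muscle, read 42.1, 108 and 133 (−1.66). Of 36 proteasome subunits 11 were higher and 25 lower, 0 past 2-fold, with a median of −0.20; without probe sets of special suffixes it was −0.08. The cytosolic ribosomal proteins were level, with 12 higher and 12 lower of 24 (median −0.001).

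**Figure D4:**
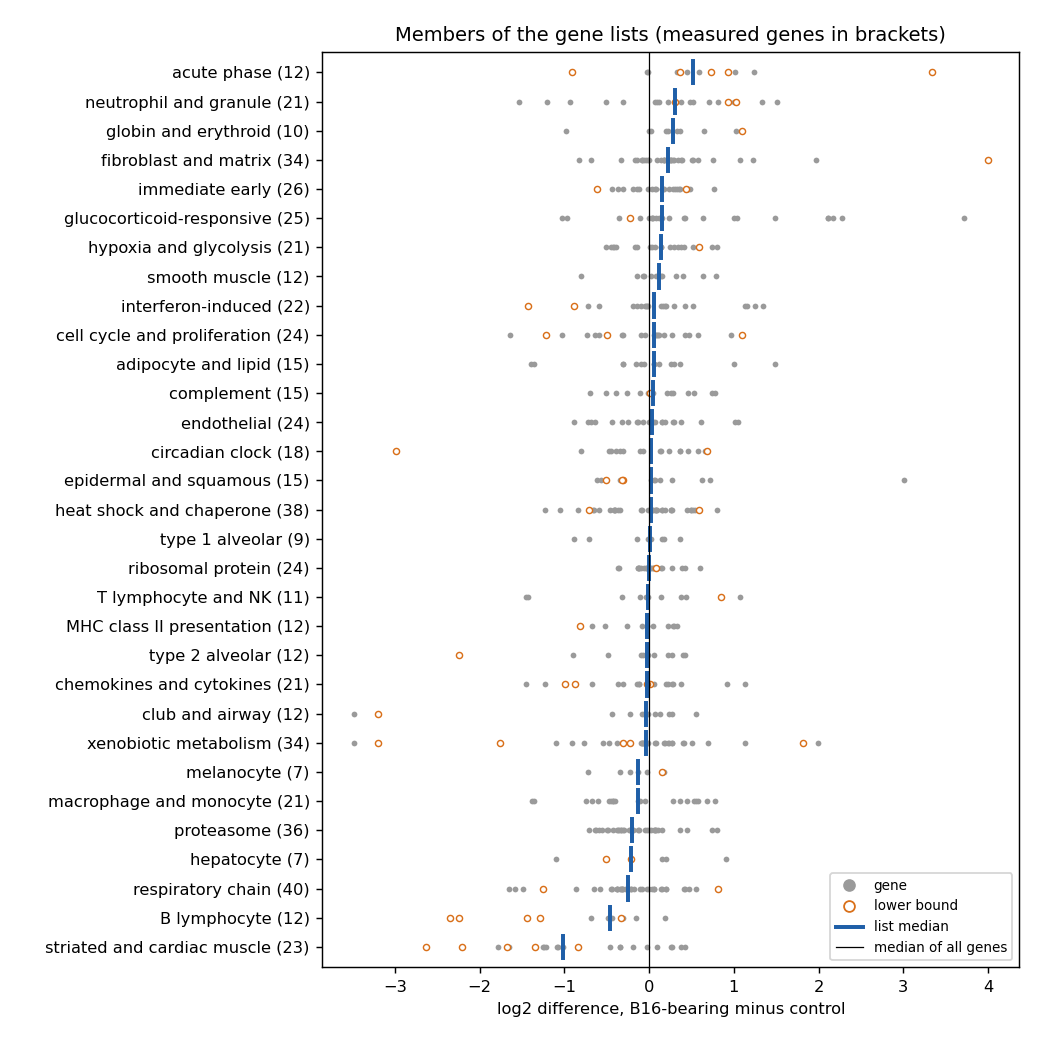
Log2 difference of every measured member (points) of 31 gene lists, with the list median (blue bar) and the number measured in brackets; open points are lower bounds and the thin line is the median of all measured genes. Striated and cardiac muscle and B lymphocyte medians lie farthest to the left and acute phase farthest to the right, while the glucocorticoid-responsive list has a long right tail.

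Chaperones were balanced (21 higher and 17 lower of 38, median 0.02). The co-chaperone Stip1 read 220, 118 and 127 (0.80), and the inducible Hspa1a and Hspa1b both differed by −0.41. Hypoxia and glycolysis genes were higher for 14 of 21, none past 2-fold (median 0.14), with lactate dehydrogenase (Ldha) at 0.42 and Pfkl, a phosphofructokinase, at 0.80. Immediate early genes were higher for 18 of 26, also with 0 past 2-fold (median 0.15). Beside both lists, 49.4% of all measured genes were higher. The share was 53.4% at a mean signal of 100 or more and 62.2% among bright genes. Fos read 291, 235 and 171 (0.77) and Jun 222, 170 and 173 (0.36). Cell cycle genes were split (13 higher and 11 lower of 24), the G1 cyclin Ccne1 being lower at 100.1, 267 and 313 (−1.64). Ki-67 (Mki67) read 52.2, 52.0 and 37.6 (0.47).

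Clock genes divided evenly, 9 higher and 9 lower of 18 (median 0.03). Dbp, an output gene of the clock, gave no signal over the floor in B16 bearers, 80.4 in LLC bearers and 186 in control, so that it was at least 7.90-fold lower. Other genes that peak at a similar time of day were lower by less: Nr1d2 read 180, 232 and 313 (−0.80), Nr1d1 246, 228 and 343 (−0.48), and Per3 differed by −0.31. The activators Clock and Arntl were higher, by 0.37 and by at least 1.60-fold. Nfil3, a repressor of Dbp targets, read 170, 172 and 113 (0.58), but was at least 1.43-fold lower in its second probe set. No source used here gives the hour at which each lung was taken, and its part in these values was not tested.

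Fat cell and lipid genes were split, 8 higher and 7 lower of 15. Hormone-sensitive lipase (Lipe) read 124, 84.7 and 44.2 (1.48), while adiponectin (Adipoq), a marker of fat cells, read 37.0, 114 and 97.1 (−1.39). Of 15 complement genes measured 9 were higher (60%, beside 49.4% of all measured genes; median 0.05), and 8 with the median of a gene's probe sets (0.006), with the receptor Cd93 at 1253, 851 and 752 (0.74). The epidermal list had 8 higher and 7 lower of 15, among them Sprr2i, a small proline-rich protein, at 268, 221 and 33.2 (3.01); its probe set also matches related genes. Of 7 pigment cell genes measured 2 were higher and 5 lower, 0 past 2-fold.

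The remaining bright genes with the largest differences differed by 0.76 to 0.98 on the higher and by −0.61 to −0.76 on the lower side. Tcn2, the plasma carrier of vitamin B12, read 856, 477 and 435 (0.98), and the tetraspanin Tspan9 888, 482 and 473 (0.91). For Rnf208 (0.88), Ubr4 (0.82) and Zfp787 (0.80) the LLC-bearing lung was near control, at log2 differences of 0.27 or less. Basp1 differed by 0.76, but its second probe set by −0.32. On the lower side, the growth factor Kitl, ligand of the receptor Kit, read 557, 634 and 895 (−0.68), and Xbp1, a transcription factor of secretory cells, 419, 820 and 677 (−0.69). Cavin2, a protein of caveolae, read 664, 882 and 1052 (−0.66). Lims1 (−0.76), Enpep (−0.68), Tmed7 (−0.68), Cd164 (−0.66) and Rab14 (−0.61) complete the set; the second probe set of Tmed7 gave −0.67 and that of Rab14 0.07, and that of Enpep was at least 1.42-fold higher.

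In the middle range, Colq, the collagen-like tail that anchors acetylcholinesterase, read 230, 23.4 and 5.1, at least 9.75-fold higher and near or below the floor in both other lungs. Slc7a5, a transporter of large neutral amino acids, read 151, 174 and 53.0 (1.51), Acy1 169, 134 and 58.4 (1.53), Rgs14 189, 299 and 61.9 (1.61) and Trim46 167, 258 and 53.1 (1.66). These 4 were higher in both tumour-bearing lungs. Far lower in the B16-bearing lung were Ptprn (−2.71), Arfgap2 (−2.28), the matrix protein Matn2 (−2.12), the carbonic anhydrase Car3 (−2.05), the guidance factor Sema3e (−1.90), the sodium channel Scn7a (−1.71), Acot7 (−1.69) and the helicase Ddx56 (−1.65). Car3, which is abundant in fat and muscle, read 68.9, 400 and 285, and Acot7 47.3, 224 and 153; both were low in the B16-bearing lung alone. Ptprn read 28.3, 15.5 and 186 and Matn2 42.7, 26.9 and 186, low in both tumour-bearing lungs.

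In the dim range the largest differences were bounds. Eif5a, a translation factor, read 245 in the B16-bearing lung and was below the floor in the other lungs, at least 10.4-fold higher. Il6ra, the receptor subunit that binds interleukin 6, read 169, 36.1 and 9.7, at least 7.15-fold higher. Josd2, a deubiquitinase, read 107 and 131 in the LLC and control lungs and no more than the floor in B16 bearers, at least 5.56-fold lower. Each of these rests on 1 probe set.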

How the data were processed

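Total RNA of 1 B16-bearing, 1 LLC-bearing and 1 control lung was isolated with TRIzol and turned into biotin-labelled cRNA for Affymetrix arrays, per the labels' protocols. Each probe set has 1 deposited intensity per array, not in logs; values below 0 show that background had been subtracted, and the equal trimmed means that each column had been scaled. No source used here names the array software. Arrays carry no read depth, and their number limits the precision. All 3 value columns were matched to samples by title, and 0 columns stayed unmatched.

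Each tumour-bearing array was multiplied by 1 factor (0.987 for B16, 1.01 for LLC) that set the median log2 ratio to control to 0 over probe sets brighter than the median. The floor was the 40th percentile of the scaled values (23.6), and lower values were raised to it before log2. Symbols came from the platform's probe-gene table: 396 probe sets had several symbols and 1193 none, and these were not named; RefSeq (GRCm38.p6, names and promoters only) held the gene ID of 10817 of the 10833 single symbols. Marker and pathway lists (31) were written by hand, and members and lists were chosen with earlier results of these data known. Named were the 12 largest differences each way among bright and middle genes, the 3 each way among dim genes, up to 12 genes each way whose probe sets all passed 1.5-fold, up to 4 members of each list by size, and S100a8 and S100a9. Other genes in the text, the metal response core, the window after the start, and the 33 plotted genes were chosen after their values were seen. No test was run, because each group had 1 array. The steps were tested on simulated arrays with planted changes. These were planted only in genes with a control signal well above the floor, so genes near the floor were not covered. Python 3.11.15, numpy 2.4.6, pandas 2.3.3, statsmodels 0.14.6 (for the lowess curve) and matplotlib 3.10.9 were used. The alternatives tried were both other array factors, a lowess curve, other floors, the median of a gene's probe sets and leaving out probe sets with special suffixes, which mark sets that match several genes or break the maker's design rules.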

Additional observations from a re-analysis of the deposited data

Results flagged for a closer look

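For 7 of the 170 named genes both tumour-bearing lungs differed from the control lung by at least 1.5-fold in opposite directions. Most named genes were picked for the size of their difference in B16 bearers. The share over all measured genes was not counted, so the 7 cannot be set against it. With 1 array per group these opposite differences were not tested. Both are read against the same control array, so no value here is independent of the other. Of these, 3 are leukocyte genes. Ptprc (CD45) stood at −2.45 with B16 and 0.84 with LLC (log2 difference from control), Lsp1 at −1.05 and 0.85, and Ccr2, the receptor that draws monocytes out of the bone marrow, at −0.75 and 2.65. Both measured probe sets of Ptprc and of Lsp1 gave this order. Csf1, which macrophages need to survive, ran the other way, at 1.13 with B16 and −0.93 with LLC. The liver and lung cytochrome Cyp2e1 stood at −1.10 and 0.66, the early response gene Egr1 at −0.61 and 0.71, and Pelo at 0.90 and −0.81. Egr1 and Pelo were below the floor on 1 array, so that these values are in part lower bounds. The second probe set of Pelo read 43.5 with B16, 41.1 with LLC and 7.8 in control. There both tumour-bearing lungs lay above control, so the opposite directions of Pelo rest on its brightest probe set alone.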

How the results depend on the processing

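In the main setting 193 genes were at least 2-fold higher and 277 lower. The floor decides these counts through the dim genes. With the floor at the 30th percentile, an alternative chosen after seeing the data, they were 349 and 497 (dim 293 and 436), and the second probe set lay on the same side for 56.8% of genes past 2-fold instead of 72.0%. With the 60th percentile they were 59 and 64 (dim 4 and 6; 93.3%), and with a floor at a signal of 100 they were 37 and 33 (middle range 30 and 32, dim 1 and 0; 88.9%). The planned floor at the 20th percentile was not run, because the value there is −0.506 and has no logarithm. Without probe sets of special suffixes 0 bright genes were at least 2-fold lower, since the probe set of Igkv6-23 has one. Igkv14-111 turned from higher to lower with the median of its probe sets (−0.44) and without special suffixes (−0.77). A lowess curve put 47.0% of the differences past 2-fold on the higher side, against 41.1% in the main setting. Of the 89 named genes past 2-fold, all 89 remained so with both other array factors, 83 with the lowess curve, 84 with the median of probe sets, 74 of 80 measured without special suffixes, 55 of 80 with the 60th percentile and 36 of 72 at a signal of 100. The medians of all 31 lists moved by less than the spread per probe set (0.40), except striated and cardiac muscle (−0.40 with the 60th percentile, −0.41 at a signal of 100) and acute phase (1.02 at a signal of 100). No paired analysis was possible because each group holds 1 array, and for the same reason no replicate could be left out.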
